A study of Mus musculus with 4 samples.

Results

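The genes described here were 10 genes by which the hormone-making cells of the gut are known: Cck, Sct, Gip, Ghrl, Gcg, Sst, Nts, Pyy, Tph1 and Neurod1. They were chosen by name, and their probes were found by mapping each probe's RefSeq accession to its symbol. They were read by 11 of the 39418 probes of the array, which stood for 10 of 32575 genes or unnamed identifiers, and Neurod1 alone had more than 1 probe. The 4 samples were spinal cord and duodenum of male mice aged 20 weeks, 1 array for each organ in mice labelled IP6K2-KO and in their littermates labelled IP6K2-WT. Both genotypes had been kept on CE-2 chow and were then switched for 1 week to iVid-neo, a purified diet, with a fast of 48 h at the end. IP6K2 is a kinase that makes the inositol pyrophosphate IP7, and the study describes its knockout line as lacking an exon of the kinase domain. With 1 array in each group no difference below has a replicate check, and no p-value was computed.

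Enteroendocrine cells are scattered single cells of the gut epithelium that sense the luminal contents and release peptide hormones or serotonin toward blood and nerves. They arise from crypt progenitors under the transcription factor NEUROG3, with NEUROD1 acting after it, and they pack their products into dense-core granules, where prohormone convertases cut the precursors. Several of the same peptides are transmitters elsewhere: cholecystokinin, somatostatin and neurotensin are made by neurons of the dorsal horn of the spinal cord, and glucagon and somatostatin by the islets of the pancreas. The samples were pieces of organ and not sorted cells, so fewer hormone cells and less RNA per cell cannot be told apart in any value below.

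The arrays differed widely in brightness, which bears on every value here. The 75th percentile of the processed signal, the level from which values were scaled, was 905 on the WT cord array, 972 on the KO-labelled cord array, 68.0 on the WT duodenum array and 323 on the KO-labelled duodenum array. Probes well above background, as the scanner software calls them, made up 76.8%, 77.4%, 51.6% and 66.2% of all probes on these arrays in the same order. The targeted gene did not bear out the genotype labels in either organ. The Ip6k2 probe gave signals of 452 and 1320 on the WT and KO-labelled cord arrays and of 139 and 572 in the duodenum, which after scaling was 1.45 higher and 0.21 lower on the log2 scale on the KO-labelled arrays. The sources used here do not say where this probe lies relative to that exon, so genotypes are named as labelled. The tissue labels went with their markers: 12 of 12 enterocyte genes and 12 of 12 epithelial genes were at least 2-fold higher in duodenum than in cord for both genotypes, and 11 (WT) and 12 (KO-labelled) of 13 cord genes were at least 2-fold lower.

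Promoters are shown because the genes share a cell lineage but do not all belong to the same sequence family. In the RefSeq windows of 250 bases before each start site (GRCm38.p6), which held all 10 genes, the E-box CAGATG, searched on both strands, lay 30 bases before the start site of Cck, 242 before that of Sct, and 139 and 83 before that of Gcg. E-boxes are the letters that basic helix-loop-helix factors, the family of NEUROG3 and NEUROD1, bind. The same letters stood in 14.4% of all 32851 promoter windows of this length, and in a window of 16.3% of 27025 genes. The E-box CAGCTG, which reads the same on both strands, was in windows of Sct, Gip, Ghrl and Nts. It was in 13% of all windows and for 14.7% of genes. The window of Sst held the cAMP response element TGACGTCA, known as the element through which cAMP signalling acts on this gene, 48 bases before the start site. That element was in 1.55% of all windows and for 1.77% of genes. A TATA box, TATAAA, was in the windows of Sct and Gcg, in 12.4% of all windows and for 14.3% of genes. No searched motif was found in the windows of Pyy, Tph1 or Neurod1. In the lines below the E-boxes CAGATG and CAGCTG, the cAMP response element and TATA boxes of either strand are in capitals. Other forms of the E-box were not searched and stay in lower case. Bases inside an annotated gene are left out for Sct, its TATA box among them. The window of Sst lies wholly inside the annotated gene, and there the element is shown with the bases around it.
Gcg promoter, chr2:62483654-62483903, minus strand: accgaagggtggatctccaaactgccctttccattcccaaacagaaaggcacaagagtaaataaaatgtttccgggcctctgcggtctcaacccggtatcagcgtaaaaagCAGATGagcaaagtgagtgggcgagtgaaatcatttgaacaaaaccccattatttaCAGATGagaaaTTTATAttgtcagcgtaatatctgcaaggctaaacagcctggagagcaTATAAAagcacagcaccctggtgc
Cck promoter, chr9:121495695-121495944, minus strand: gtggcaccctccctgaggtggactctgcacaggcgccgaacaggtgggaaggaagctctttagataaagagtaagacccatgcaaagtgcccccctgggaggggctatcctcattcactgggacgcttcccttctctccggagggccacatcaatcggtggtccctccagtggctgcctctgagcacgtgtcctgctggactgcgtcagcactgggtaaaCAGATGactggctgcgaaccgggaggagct
Sct promoter, chr7:141279175-141279383, minus strand: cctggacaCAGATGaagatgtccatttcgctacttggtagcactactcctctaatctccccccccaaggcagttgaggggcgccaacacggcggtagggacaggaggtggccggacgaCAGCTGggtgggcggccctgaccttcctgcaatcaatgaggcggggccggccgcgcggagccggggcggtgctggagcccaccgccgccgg
Sst promoter, chr16:23890874-23890903, minus strand: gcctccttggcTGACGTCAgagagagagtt

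Of the hormones typical of the upper small intestine, Sct, Gip and Ghrl were far brighter in duodenum than in cord, and Cck had signal in both. Sct encodes secretin, which drives bicarbonate secretion, and its processed signal was 153 on the WT cord, 135 on the KO-labelled cord, 3008 on the WT duodenum and 14589 on the KO-labelled duodenum array. Gip encodes an incretin made by K cells and gave 247 and 1866 in WT and KO-labelled duodenum, but 1.20 and 1.75 in the cords, neither well above background. Ghrl, the precursor of the hunger hormone ghrelin, gave 992 and 4982 in duodenum and 36.2 and 30.9 in cord. After scaling all 3 were at least 2-fold higher in duodenum in both genotypes, where 30.2% (WT) and 30.3% (KO-labelled) of genes were. Their signals were higher in duodenum before scaling too. Cck, whose product empties the gallbladder and stimulates the pancreas, gave 11280 and 11599 in the WT and KO-labelled cords and 2440 and 8845 in the duodena.

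Gcg and Pyy are the products of L cells, which are commoner further down the gut. Gcg, the precursor of GLP-1 in the gut and of glucagon in the islets, gave 44.7 and 476 in WT and KO-labelled duodenum, and was not well above background in the cords, at 3.67 and 3.26. Its probe was spotted 10 times, and 1 of the 10 spots passed the background call on the KO-labelled cord array against none on the WT cord array. Pyy encodes peptide YY, which slows gastric emptying, and gave 50.3 and 299 in duodenum and 11.0 and 9.91 in cord. Both genes were above their cord signals on each duodenum array, before any scaling.

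Sst and Nts had signal in both organs. Sst encodes somatostatin, which inhibits the release of most gut hormones, and gave 7831 and 7841 in the WT and KO-labelled cords and 1952 and 5687 in the duodena. Nts, the precursor of neurotensin, was brighter in cord before and after scaling: 1365 and 1420 in the cords against 18.5 and 69.2 in the duodena. Tph1, which makes serotonin in enterochromaffin cells, gave 87.1 and 803 in WT and KO-labelled duodenum, and 1.16 and 1.18 in the cords, not well above background. Neurod1 was dim throughout, at 19.0 and 22.8 in the cords, 2.96 on the WT duodenum array, not well above background, and 20.0 on the KO-labelled one. Its second probe gave 13.0, 15.2, 2.24 and 15.8 in the same order. So 9 of the 10 genes were well above background on both duodenum arrays and 7 on both cord arrays. Gip, Gcg and Tph1 passed on neither cord array.

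**Figure D1:**
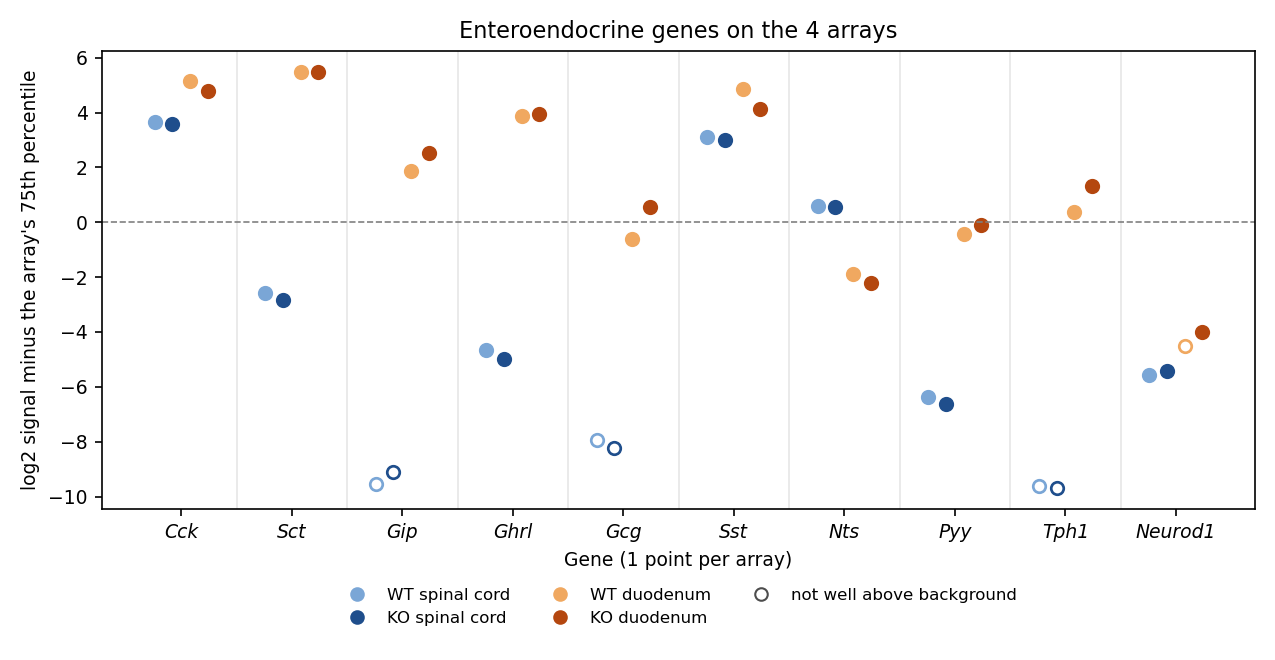
Scaled level of each gene on the 4 arrays, 1 point per array: the vertical axis is the log2 processed signal minus the array's 75th percentile (dashed line at 0), and open points were not well above background. For Sct, Gip, Ghrl, Gcg, Pyy and Tph1 the 2 duodenum points lie far above the 2 cord points, while for Nts they lie below.

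In the duodenum, the genotype comparison asks whether hormone genes differ in mice labelled as lacking the kinase. They did not shift together. Gcg was 2.24-fold higher on the KO-labelled array (log2 difference 1.16), Tph1 1.94-fold higher (0.96) and Gip 1.59-fold higher (0.67). Pyy differed by 0.32, Ghrl by 0.08 and Sct by 0.03 on the log2 scale. Nts, Cck and Sst were lower on the KO-labelled array, with differences of -0.34, -0.39 and -0.71, the last a 1.63-fold one. All raw signals were higher on that array, so the lower direction of Nts, Cck and Sst rests on the scaling to the 75th percentile. No difference is given for Neurod1, whose bound against the dim WT array lay below 0.

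Gcg was the 1 gene of the 10 at least 2-fold higher, where 7.17% of the 21428 genes tested were, and 0 of the 10 were at least 2-fold lower, where 11.9% of genes were. Under both normexp background corrections a different gene held that count: Gcg was 0.78 higher and Gip 1.05. The median of the 9 measured was 0.08, against -0.12 for the median gene, a gap of 0.20. Of the 9, 6 were above 0 and 3 below. Among all genes measured on both arrays, Gcg lay at percentile 95.1, Tph1 at 91.9, Gip at 84.8 and Sst at 23.8. The technical SD of a difference between single spots, from probes spotted 10 times, was 0.082 for Gcg, 0.086 for Tph1, 0.072 for Gip and 0.067 for Sst. The differences came to 14.1, 11.1, 9.32 and 10.5 of these SDs. Gcg and Sst were means over 10 and 9 spots per duodenum array, Gip and Tph1 came from 1 spot. The ratios are therefore not on the same footing. For Sct and Ghrl the ratio was 0.44 and 1.20, so those differences were within about the spread between spots. The spots of one array say nothing of how far mice of one genotype differ.

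**Figure D2:**
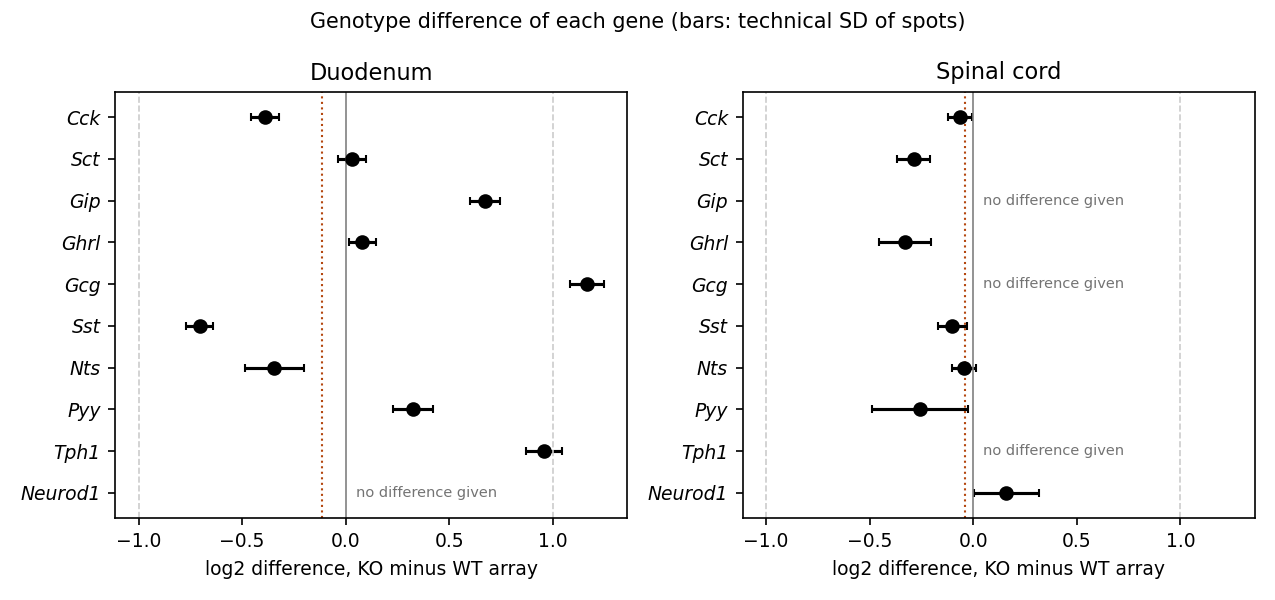
Genotype difference of each gene in duodenum (left) and spinal cord (right), as the log2 value on the KO-labelled array minus that on the WT array. Bars are the technical SD of spots, the dotted line is the median gene and the dashed lines mark 2-fold. In duodenum the genes spread from -0.71 (Sst) to 1.16 (Gcg), and in cord all that were measured lie between -0.33 and 0.16.

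Gcg and Sst were the genes with repeated spots. The 10 Gcg spots lay between -0.70 and -0.51 on the WT duodenum array and between 0.47 and 0.62 on the KO-labelled one, relative to the 75th percentile. The Sst spots used, 9 on each array, lay between 4.79 and 4.91 (WT) and between 4.09 and 4.24 (KO-labelled). After scaling, the order of the 2 duodenum arrays was opposite for the 2 genes. Before scaling, the KO-labelled spots were higher for both: 449 to 497 against 41.8 to 47.9 (Gcg) and 5519 to 6122 against 1876 to 2047 (Sst). The lower order of Sst thus rests on the scaling. How often the spots of other repeated probes lay apart was not counted, so these ranges show nothing particular to Gcg and Sst. A scaling that shifts a whole array cannot change the gap between the 2 genes. The difference of Gcg exceeded that of Sst by 1.87, and by 0.87 to 1.87 over all scalings and background corrections tried.

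**Figure D3:**
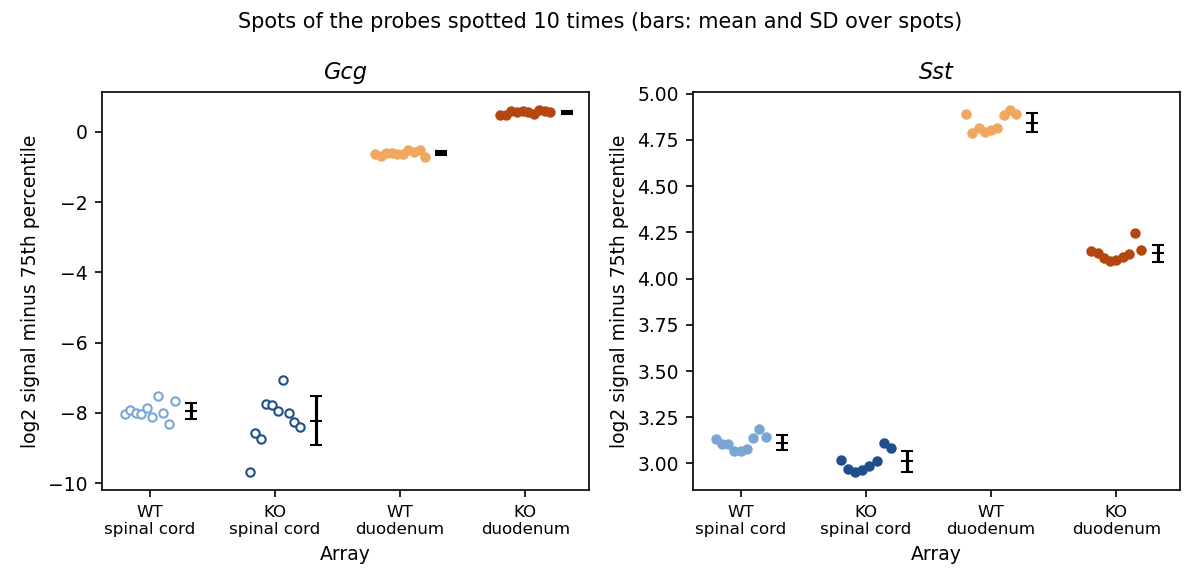
Single spots of the probes printed 10 times, Gcg (left) and Sst (right), as log2 signal minus the array's 75th percentile; the axes of the panels differ. Bars give the mean and SD over the spots used, and the open Gcg points are cord arrays on which the probe was not called well above background. The KO-labelled duodenum spots lie above the WT ones for Gcg and below them for Sst.

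How far each gene held under other scalings differed from gene to gene. Relative to the median gene, Gcg stayed between 0.96 and 1.32, Tph1 between 0.90 and 1.11, Gip between 0.70 and 1.23 and Pyy between 0.26 and 0.48 over the settings tried. Sct and Ghrl were above the median gene as well, at 0.15 to 0.83 and 0.20 to 0.89, and Nts was below it, from -0.66 to -0.19. Cck and Sst had no stable direction: Cck ran from -0.27 to 0.39 and Sst from -0.59 to 0.08, each above the median gene under the normexp corrections only. On this measure the main scaling, median centring and E1A scaling give the same value by construction, and the deposited table repeats the quantile setting, so the settings are not separate checks. With all 4 arrays quantile normalized, as in the table the authors deposited, Cck differed by -0.01 and Sst by -0.34. Scaled instead on the E1A probes, which read RNA spiked in at labelling, the median gene itself was 2.89 higher on the KO-labelled array and all 9 hormone genes measured lay 2.30 to 4.17 higher.

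**Figure D4:**
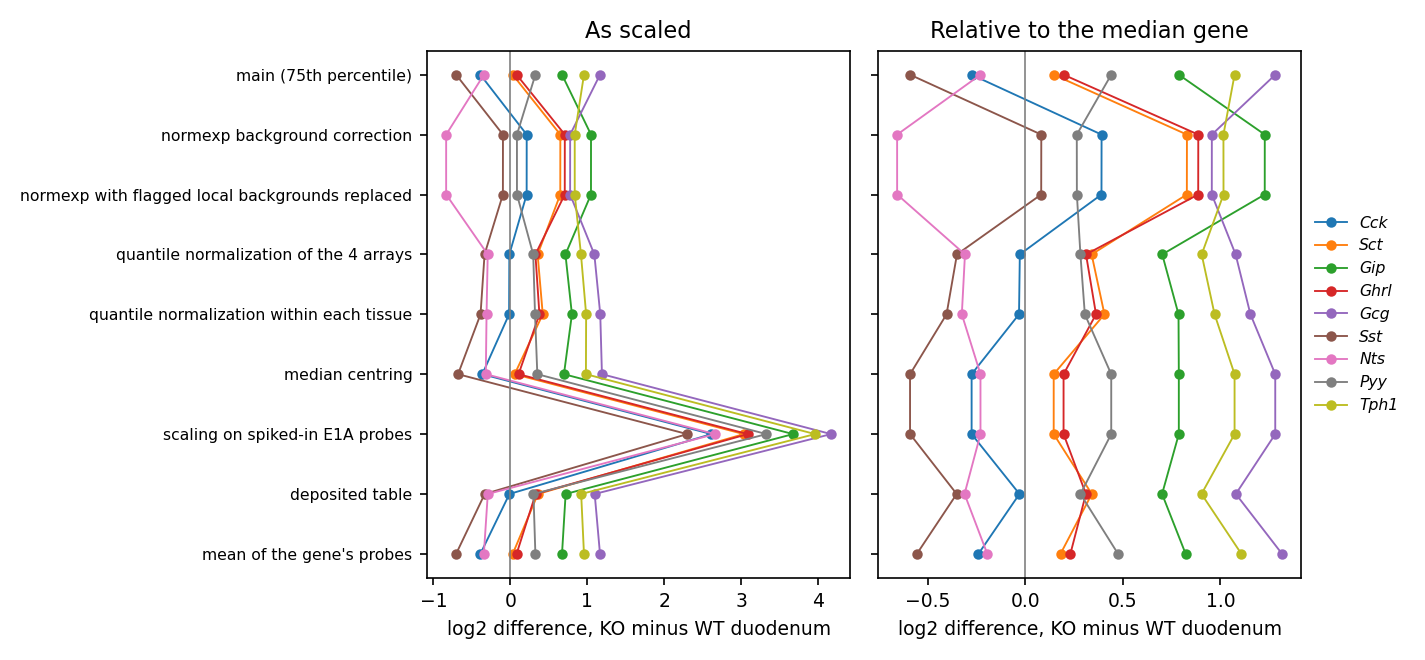
Duodenum difference (log2, KO-labelled minus WT) of the 9 genes measured on both arrays under each scaling or background correction, 1 line per gene; left as scaled, right relative to the median gene. On the right Gcg, Tph1 and Gip stay between 0.70 and 1.32, and Cck and Sst cross 0.

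The granule machinery that hormone cells share was mixed. Of 17 granule and processing genes measured on both duodenum arrays, 2 were at least 2-fold higher and 3 lower on the KO-labelled array, with a median of 0.22. Chgb and Scg2, both granins that help form the granule, were the higher ones, at 1.33 and 1.15. Chga, the granin used most often as an endocrine marker, differed by 0.46. Cplx2 and Vgf were lower at -1.58 and -1.46, as was Ptprn2 at -1.03. Chgb, Scg2, Cplx2 and Vgf were all bright on the WT cord array, at 30334, 24528, 21517 and 22376. The prohormone convertases gave -0.21 for Pcsk1, the main one of gut endocrine cells, and 0.90 for Pcsk2, which islet alpha cells use. Scg2, Ptprn2 and Pcsk2 were named after their values were seen.

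The genes that handle serotonin around Tph1 all had smaller differences than Tph1 itself. Of the 9 serotonin and amine genes measured, Tph1 included, 0 were at least 2-fold different in either direction, with a median of 0.42. Ddc, which makes serotonin from the product of TPH1, and Slc18a2, a vesicular amine transporter, both differed by 0.83, and Slc6a4, the serotonin transporter, by 0.42. Tph2, the neuronal enzyme, was not well above background on either duodenum array. Mast cells also make serotonin through Tph1 in rodents. Of 8 mast cell genes measured, 0 were higher and 4 lower by 2-fold, among them Mcpt1 at -1.67, Mcpt4 at -1.90 and Gata2 at -1.11, while Mcpt2 differed by 0.08 and Cpa3 by -0.34. Their summed level, each gene's signal over the 75th percentile, was 2.38 on the WT and 1.78 on the KO-labelled array. The part of mast cells in the Tph1 value was not tested.

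The transcription factors of the lineage showed no common direction. Of 21 with a probe, 12 were measured on both duodenum arrays. Among them or by a bound, 1 was at least 2-fold higher, Lmx1a with a bound of 1.07, and 1 lower, Nkx2-2, whose scaled level was -0.03 on the WT and -2.03 on the KO-labelled array. The list's median was -0.07. Neurog3, which marks the progenitors of all these cells, gave 102 and 396 and differed by -0.30. Fev, which enterochromaffin cells express, differed by -0.89, and Pdx1, a factor of duodenum and pancreas, by -0.64. Nkx2-2 is a factor of several hormone cell types, and its difference went the opposite way to those of Gcg and Tph1.

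Among 20 other peptide genes of gut and nerve, 13 were measured on both duodenum arrays, 2 were at least 2-fold higher and 1 lower, with a median of -0.05. The higher ones were Ppy, which encodes pancreatic polypeptide, at 2.79 (signals 8.44 and 276) and Iapp, which encodes the amylin that beta cells release, at 1.96 (46.4 and 857). Npy, a neuronal peptide, was lower at -1.54. Of 9 nutrient and bile acid sensors measured, 1 was higher, Trpa1 at 2.25, an irritant channel of enterochromaffin cells. The 4 lower ones were Lpar5 (-2.15), Tas1r3 (-1.44), Gpbar1 (-1.27) and Ffar3 (-1.04), of which the last pair was named after its values were seen. The median of the sensors was -0.66. Of 10 receptors of these hormones measured, Cckar, through which cholecystokinin acts on gallbladder and pancreas, was higher at 2.71 (54.6 and 1700), and 3 were lower, Sstr4 at -1.84, Sstr5 at -1.38 and, named after its value was seen, Ntsr1 at -1.02.

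**Figure D5:**
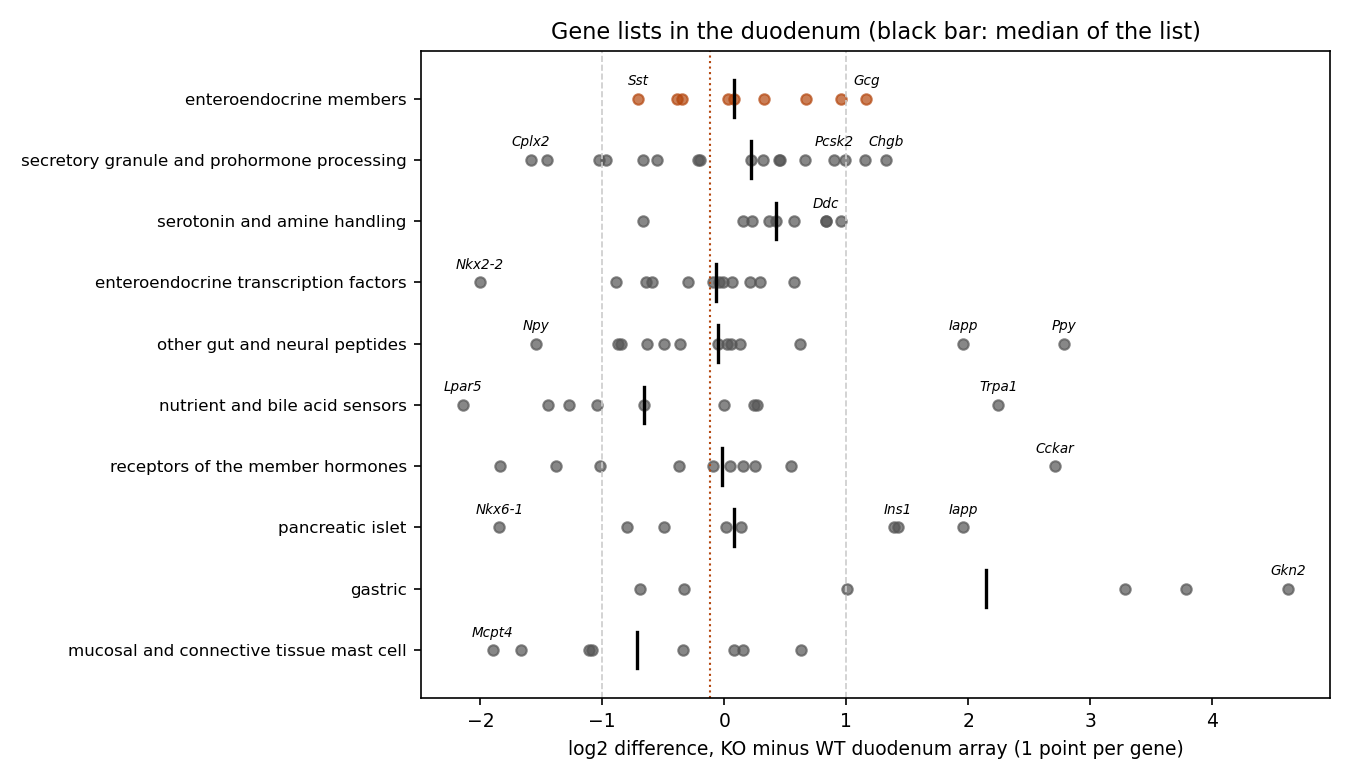
Duodenum difference (log2, KO-labelled minus WT) of each gene measured on both arrays, 1 point per gene, by list; the hormone genes are in colour at the top. Black bars are list medians, the dotted line is the median gene and the dashed lines mark 2-fold. The gastric list has a median of 2.15, and each list drawn has points on both sides of the median gene.

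The insulin genes and Iapp, products of pancreatic islets, were higher together with Gcg. On the KO-labelled duodenum array Ins1 was higher by 1.42 (signals 736 and 9384), Ins2 by 1.39 (856 and 10675) and Iapp by 1.96. Of 8 islet genes measured on both arrays, 3 were at least 2-fold higher and 1 lower, Nkx6-1 at -1.84, with a median of 0.08. The islet list had 8 of 10 genes well above background on the WT and 10 of 10 on the KO-labelled duodenum array, with summed levels of 47.8 and 88.4 against 3.74 and 3.65 in the cords. Insulin, the defining product of islet beta cells, was therefore far above background in both duodenum samples. Ins1 and Ins2 are near-identical copies and their probes may share signal. The enzymes of pancreatic acinar cells were present too, 15 of 15 well above background on both arrays, with summed levels of 21911 (WT) and 6720.5 (KO-labelled). Of these 15, 10 were at least 2-fold lower on the KO-labelled array, with a median of -1.74, led by Try5 (-2.18), Ctrb1 (-2.17) and Clps (-2.13), but under quantile normalization 0 were lower, 1 was higher and the median was 0.07. Glucagon, somatostatin, peptide YY and pancreatic polypeptide are all islet products as well, and the part of pancreatic tissue in the values of Gcg, Sst, Pyy and Ppy was not tested.

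Gastric genes also differed between the duodenum arrays, and the stomach is a main source of ghrelin and somatostatin. Of 6 gastric genes measured, 4 were at least 2-fold higher on the KO-labelled array, with a median of 2.15, and 0 were at least 2-fold lower. Gkn2 was higher by 4.63, Tff1 by 3.79 and Muc5ac, the surface mucin, by 3.29. Tff2, the brightest of the list, and Pgc were lower after scaling, by less than 2-fold. The scaled level of Tff2 was 10.15 (WT) and 9.46 (KO-labelled), and that of Pgc 1.27 and 0.94. Gast, the hormone of antral G cells, was well above background only on the KO-labelled array and had a bound of 0.43. Atp4b, a subunit of the parietal cell proton pump, was not well above background on either duodenum array. The gastric list had 6 and 9 of 10 genes well above background, and its summed level was 1280.2 (WT) and 1065 (KO-labelled). Ghrl differed by 0.08 and Sst by -0.71, and the part of gastric tissue in their values was not tested. Epithelial genes, the share of tissue in which hormone cells lie, had a median of -0.33, or 0.05 under quantile normalization, with 0 of 12 at least 2-fold different, Epcam at 0.50 and Vil1 at 0.20. Blood genes differed widely: 6 of 6 measured were at least 2-fold lower on the KO-labelled duodenum array, with a median of -3.39 (-2.50 under quantile normalization) and summed levels of 1532 (WT) and 88.3 (KO-labelled). They were led by Hba-a2 at -4.19, Hba-a1 at -4.05 and Alas2 at -3.77. Their part in the hormone values was not tested.

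In the spinal cord the arrays of the 2 genotypes were close. Of the 7 genes measured, 0 were at least 2-fold higher, where 2.28% of genes were, and 0 were at least 2-fold lower, where 0.869% were. The dorsal horn peptides Cck, Sst and Nts differed by -0.06, -0.10 and -0.05. Sct, Ghrl and Pyy, dim in this organ, differed by -0.29, -0.33 and -0.26. Neurod1 differed by 0.16, and by 0.12 on its second probe. The median was -0.10 against -0.04 for the median gene, and 6 of the 7 lay below 0. The differences of Cck, Sst, Nts, Pyy and Neurod1 were between 0.79 and 1.45 of their technical SDs, and those of Ghrl and Sct were 2.62 and 3.61 of theirs. Gip, Gcg and Tph1 were below background on both cord arrays and have no difference.

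The pathway lists were as quiet in cord. None of 19 granule genes reached 2-fold, with Chga at -0.04, Chgb at -0.22 and Pcsk1 differing by 0.0031, and neither did any of the 20 hormone receptors or the 17 transcription factors that were measured or bounded. Slc6a4 was the only gene of the serotonin list past 2-fold, at 1.57 with signals of 4.87 and 15.5, the first close to the lowest called well above background on that array, 4.47. Blood genes were higher on the same array, 5 of 7 by at least 2-fold, with summed levels of 228 (WT) and 351 (KO-labelled), and platelets carry the serotonin transporter too. Their part in the Slc6a4 value was not tested.

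Between organs the hormone genes set the duodenum apart, in both genotypes. In the WT pair 8 of 10 were at least 2-fold higher in duodenum, where 30.2% of genes were, and 1 was at least 2-fold lower, where 23.1% were. In the KO-labelled pair these were 9 and 1 of 10, where 30.3% and 25.4% of genes were. With the 4 arrays quantile normalized, 6 (WT) and 7 (KO-labelled) were at least 2-fold higher, without Cck and Sst. Cck was then 0.32 in both genotypes, and Sst 0.70 in WT and 0.44 in KO-labelled mice. Before scaling, both were brighter in cord, so their place in the counts rests on the scaling. Ghrl was 365-fold higher in WT and 484-fold higher in KO-labelled duodenum (log2 8.51 and 8.92), Sct 261-fold and 325-fold (8.03 and 8.34) and Pyy 60.8-fold and 90.8-fold (5.92 and 6.51). For the genes at background in cord only bounds can be given. Gip was at least 735-fold and 1307-fold higher in WT and KO-labelled duodenum, Tph1 at least 260-fold and 562-fold, and Gcg at least 133-fold and 333-fold. Nts was 5.55-fold and 6.82-fold lower in duodenum. With bounded genes at their bound, the median was 7.06 in WT and 7.42 in KO-labelled mice, against 0.17 and 0.12 for the median gene. Over the 6 (WT) and 7 (KO-labelled) genes measured on both arrays it was 3.83 and 1.40, against 0.63 and 0.30 for the median gene.

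Cck, Sst and Neurod1, which neurons also make, had much smaller differences between organs. Cck was 2.88-fold higher in WT and 2.29-fold higher in KO-labelled duodenum, and Sst 3.32-fold and 2.18-fold. Neurod1 was 2.64-fold higher in KO-labelled duodenum, and in WT no difference is given. Quantile normalization within each organ moved the median gene to -2.08 in WT and -2.31 in KO-labelled mice, and E1A scaling moved it to -4.41 and -1.57. The differences of all 3 genes were below 0 on those scales, but relative to the median gene they stayed above it: within organs Cck was 0.79 and 1.01 in WT and KO-labelled mice, Sst 1.01 and 0.91, and Neurod1 1.08 in KO-labelled mice. With the 4 arrays quantile normalized, Cck in WT lay at the median gene (-0.01 relative to it). For Sct, Ghrl, Pyy, Gip, Gcg and Tph1, higher in duodenum, and for Nts, lower, the direction was the same in both genotypes under the settings tried, but the sizes were not. In WT the bounds came down to 3.03 (Gip), 1.70 (Tph1) and 1.33 (Gcg) on the log2 scale under normexp, and to 4.48, 2.98 and 2.02 on the E1A scale. Among measured genes, Sct came down to 2.99 and Ghrl to 3.47 on the E1A scale, and Pyy to 0.89, which is under 2-fold. The granule genes ran the other way, with 16 of 19 (WT) and 13 of 19 (KO-labelled) at least 2-fold lower in duodenum and none higher.

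The 5 genes below had the pattern over the 4 arrays most like the mean of the 9 hormone genes measured on both duodenum arrays, by Euclidean distance of gene-centred log2 values over 12431 genes: P2rx1 (0.15), 4930415O20Rik (0.16), Cideb (0.17), Elmo3 (0.19) and Upk1b (0.20). Like that mean, each was higher on both duodenum arrays than on both cord arrays. With 4 arrays this measure is mostly the difference between the organs.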

How the data were processed

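Total RNA of each organ (RNA integrity number above 7.0) was labelled with Cy3 and hybridised to 1-colour Agilent mouse arrays, which were read with Agilent Feature Extraction 11.5.1.1 per the labels. The deposited scanner files give a processed signal intensity per spot, already background-corrected, and the deposited series table gives log2 values. That table matched the processed signals, raised to 1 where lower and quantile normalized over the 4 arrays, within 0.0033 for the genes described. Control spots and outlier spots were left out (89 to 133 of 43020 spots per array), spots of a probe were averaged, and log2 signals were set to the array's 75th percentile. Of several probes of a gene, the one of highest mean level stood for it. A gene well above background on 1 array only got a bound: its level there minus the higher of its own level and the lowest level called well above background on the dim array. Bounds at or below 0 were not given. Calls were differences of at least 2-fold. The technical SD came from 397 probes spotted 10 times (the 50 nearest in brightness, or the gene's own spots). It is a spread of single spots, also for Gcg and Sst, whose values are means over several spots. The steps were tested on simulated data. No spot was saturated, and the number of arrays limits the precision.

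The 4 arrays were on 1 slide. Symbols came from a RefSeq table (GRCm38.p6) through 25864 of 26387 NM accessions, and no array coordinates are given. The alternatives were normexp on the median signal (offset 50), with and without flagged local backgrounds replaced, quantile normalization of all arrays or within each organ, median centring, E1A scaling, the values as deposited, averaging of probes, other filters and 1.5-fold. Named beside the 10 genes were Ip6k2, up to 3 genes of the largest difference per list, defining markers and the 5 genes most alike in pattern. Tph2, Slc6a4, Atp4b, Tff2 and Pgc were added after their values were seen. The genes and the 20 lists were chosen with earlier results of these data known. Muc6, Gif, Tpsab1, Slc6a5, Scn9a, Hbb-b1 and Defa24 had no matched probe. R 4.3.3 with limma 3.58.1 and Python 3.11.15 with numpy 2.4.6 and pandas 2.3.3 were used.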

Additional observations from a re-analysis of the deposited data

Results flagged for a closer look

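Ghrl and Pyy differed between genotypes in opposite directions in the 2 organs. Ghrl was 0.08 higher in duodenum and 0.33 lower in cord on the KO-labelled array (log2), 0.41 apart. Pyy was 0.32 higher in duodenum and 0.26 lower in cord, 0.58 apart. With 1 array per group neither difference between organs was tested. In cord Ghrl gave signals of 36.2 and 30.9 and Pyy of 11.0 and 9.91; the lowest signals called well above background were 4.47 and 4.29.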

How the results depend on the processing

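No paired analysis was possible because each group had 1 array, so no value has a spread between replicates; leaving out a sample is not possible for the same reason. In KO-labelled against WT duodenum, 10 genes were at least 2-fold higher on the E1A scale and 3 at 1.5-fold, where 1 gene was lower by 1.5-fold. The median relative to all genes, 0.20, was 0.83 under both normexp corrections, 0.31 with the 4 arrays quantile normalized and in the deposited table, 0.36 with quantile normalization within organs and 0.75 with no filter. Under both normexp corrections Cck turned to 0.21, and the 1 gene at least 2-fold higher was Gip (1.05) in place of Gcg (0.78). On the E1A scale Cck was 2.61, Sst 2.30 and Nts 2.66. In cord, normexp made 4 genes at least 2-fold lower, the median relative to all genes -0.77, Cck 0.31, Sst 0.29, Nts 0.11 and Neurod1 -2.06. On the WT cord array the highest local background was 15708, against 36.5 to 47 on the others, and with flagged backgrounds replaced Neurod1 was -0.041, and it was -0.0087 on the E1A scale. Between organs in WT, the count higher was 5 on the E1A scale and with only genes above background on both arrays, and the count lower was 4 with quantile normalization within organs and on the E1A scale. The WT median relative to all genes, 3.20, was 0.90 and 1.55 under the normexp corrections, 2.97 with the 4 arrays quantile normalized and in the deposited table, and 5.59 with no filter. Cck was -1.30 within organs and -3.51 on the E1A scale, and Sst -1.07 and -3.31. In KO-labelled mice the count lower was 4 within organs. The median there was 0.82 under both normexp corrections, 1.44 with the 4 arrays quantile normalized and in the deposited table, 1.24 with the mean of probes and 6.94 with no filter. Within organs and on the E1A scale, Cck was -1.31 and -0.67, Sst -1.40 and -0.74, and Neurod1 -1.23 and -0.47. Beyond replacing the flagged backgrounds under normexp, no cause was tested. In KO-labelled against WT duodenum that replacement left the normexp median relative to all genes at 0.83. Of the other values of single genes, 109 moved by less than the technical SD and 151 by more, with no change of sign but that of Nts in cord. Depth limits Neurod1 in WT duodenum and Gip, Gcg and Tph1 in cord, which were not well above background.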
